A study of Homo sapiens with 6 samples.

Results

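Large domains of H3K27me3, the trimethylation of lysine 27 on histone H3, were examined in endothelial cells made from H1, an established line of human embryonic stem cells. The domains were chosen by measured values, the deposited widths of H3K27me3 islands. A domain was taken wherever a deposited H3K27me3 island, an enriched stretch of the genome, measured at least 10 kb from end minus start. Islands of both conditions were merged, and a merged region was kept on chromosomes 1 to 22 where it overlapped the span of a protein-coding gene and no HOX gene. The 1260 islands that passed, 533 from the Vc- labelled library and 727 from the Vc+ labelled library, merged into 783 regions. Of these, 306 held no protein-coding gene and 4 held a HOX gene, which left 473 domains among 11671 merged H3K27me3 regions in all.

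The study placed GATA2-positive endothelial cells, all of H1 genotype, in 2 conditions, named Vc- and Vc+ in the labels, and the series title speaks of vitamin C. Each condition had 3 samples, namely an H3K4me3 library, an H3K27me3 library and an input, and the inputs were not used here. With 1 library per mark and condition there is no replicate, so no test between conditions was made, and the spread between cultures is unknown. File names and sample labels disagree for all 4 libraries, each file being named for the other condition. Libraries are called here by their labels ("the Vc- labelled library", "the Vc+ labelled library"), and every direction between them would turn around if the file names were right. The labels' protocol names H3K27me3 antibodies alone, and the series' design mentions cells with and without the GATA2 reporter where each sample is labelled positive. Of 24 endothelial genes, 14 had a tabulated start, and 13 of these had H3K4me3 within 1 kb of it in both libraries, among them KDR, TEK, TIE1, ENG and ROBO4, against 71.6% of all starts. Of 32 neural ectoderm genes with a tabulated start 28 had it as well, so H3K4me3 alone does not tell the cell type. These were populations of cells, so a longer island and a larger share of cells carrying the mark cannot be told apart.

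H3K27me3 is laid down by Polycomb repressive complex 2 and is bound by Polycomb repressive complex 1, and long stretches of it cover silent genes of other lineages in stem cells and their derivatives. H3K4me3 marks active promoters, and promoters rich in CpG that carry both marks are called bivalent. Vitamin C is a cofactor of the iron-dependent dioxygenases, among which are the KDM6 enzymes that remove H3K27me3.

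The promoters of 8 domain genes show the range of sequence found under these domains. Each is the run of 250 bases before the tabulated gene start, from RefSeq on GRCh38.p14, with every CG in capitals. The first 3, of the genes of the factors FOXC1 and SOX2 and of the cell cycle inhibitor gene CDKN2A, had H3K4me3 over the gene start in both libraries.
FOXC1, chr6:1609665-1609914, plus strand: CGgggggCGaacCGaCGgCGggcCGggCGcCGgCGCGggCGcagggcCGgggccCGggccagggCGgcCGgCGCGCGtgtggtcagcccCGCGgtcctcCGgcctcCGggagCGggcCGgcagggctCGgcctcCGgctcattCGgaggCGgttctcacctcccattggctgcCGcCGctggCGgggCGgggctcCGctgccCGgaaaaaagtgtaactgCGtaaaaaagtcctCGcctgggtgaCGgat
SOX2, chr3:181711675-181711924, plus strand: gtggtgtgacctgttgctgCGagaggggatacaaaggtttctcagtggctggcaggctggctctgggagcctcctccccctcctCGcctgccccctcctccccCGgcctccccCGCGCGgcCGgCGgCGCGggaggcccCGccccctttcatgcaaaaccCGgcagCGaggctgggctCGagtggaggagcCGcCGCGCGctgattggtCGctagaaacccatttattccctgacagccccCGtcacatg
CDKN2A, chr9:21995325-21995574, minus strand: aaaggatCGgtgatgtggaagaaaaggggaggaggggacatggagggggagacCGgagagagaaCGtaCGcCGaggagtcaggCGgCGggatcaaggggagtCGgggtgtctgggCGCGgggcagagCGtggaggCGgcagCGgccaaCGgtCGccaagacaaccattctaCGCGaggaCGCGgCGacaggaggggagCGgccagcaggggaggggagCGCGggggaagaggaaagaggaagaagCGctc
Starts of NKX2-1, a factor of lung, thyroid and forebrain, and ZIC1, a neural zinc finger factor, carried H3K4me3 in the Vc+ labelled library alone.
NKX2-1, chr14:36520233-36520482, minus strand: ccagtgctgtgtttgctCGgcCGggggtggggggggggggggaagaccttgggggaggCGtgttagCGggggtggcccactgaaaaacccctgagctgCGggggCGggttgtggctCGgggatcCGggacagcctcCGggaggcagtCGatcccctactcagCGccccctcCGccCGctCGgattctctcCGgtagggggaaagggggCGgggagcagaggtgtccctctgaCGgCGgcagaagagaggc
ZIC1, chr3:147409115-147409364, plus strand: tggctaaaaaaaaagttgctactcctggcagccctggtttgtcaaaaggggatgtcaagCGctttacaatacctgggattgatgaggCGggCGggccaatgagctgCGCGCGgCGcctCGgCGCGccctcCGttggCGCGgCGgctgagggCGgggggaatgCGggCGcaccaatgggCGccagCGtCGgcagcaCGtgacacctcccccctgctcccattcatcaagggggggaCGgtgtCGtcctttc
NR2F1, which encodes the nuclear receptor COUP-TF1, carried it over its start in the Vc- labelled library alone.
NR2F1, chr5:93582972-93583221, plus strand: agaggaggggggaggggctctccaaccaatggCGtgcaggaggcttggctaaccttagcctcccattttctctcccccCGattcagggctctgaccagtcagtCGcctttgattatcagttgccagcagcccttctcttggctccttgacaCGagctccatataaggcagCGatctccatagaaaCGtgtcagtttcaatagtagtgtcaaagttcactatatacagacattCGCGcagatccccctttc
ANKRD1, of the muscle protein CARP, and TFAP2D, of an AP-2 family factor, carried it in neither.
ANKRD1, chr10:90921088-90921337, minus strand: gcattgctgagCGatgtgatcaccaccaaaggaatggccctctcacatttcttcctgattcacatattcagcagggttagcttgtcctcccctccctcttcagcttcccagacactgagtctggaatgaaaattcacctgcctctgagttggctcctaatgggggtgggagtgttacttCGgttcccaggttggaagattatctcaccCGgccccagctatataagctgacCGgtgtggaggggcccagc
TFAP2D, chr6:50713276-50713525, plus strand: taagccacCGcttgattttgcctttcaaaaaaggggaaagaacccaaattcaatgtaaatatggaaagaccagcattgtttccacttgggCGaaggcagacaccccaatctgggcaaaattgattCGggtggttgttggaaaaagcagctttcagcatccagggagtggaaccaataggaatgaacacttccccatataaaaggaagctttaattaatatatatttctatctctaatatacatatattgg
The printed FOXC1 run holds 37 CGs, that of CDKN2A 24, of ZIC1 23, of SOX2 20 and of NKX2-1 18. NR2F1 has 8, ANKRD1 4 and TFAP2D 3.

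The domains measured from 10.2 to 86.2 kb, with a median of 15.8 kb and 9127 kb in all. At least 20 kb was reached by 172 domains, 30 kb by 58 and 40 kb by 20. Chromosome 1 held 47 domains, chromosome 2 held 44, chromosome 9 held 37 and chromosome 10 held 33. Because islands come in steps of 200 bp, the narrowest that passed were 10.2 kb wide. Just inside the threshold lay islands over CHAT with SLC18A3 and over FOXL2 in the Vc- labelled library and over WNT7B, CYP26B1 and MAP6 in the Vc+ labelled library. Just outside, at 10.0 kb, lay islands over IHH, BMI1 and IRF4 in the former and over GJB2, MN1 and VWC2 in the latter.

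Genes of developmental regulators were frequent in the domains. Of 19126 protein-coding genes on these chromosomes, 543 (2.84%) had an end of their span in a domain, and this share is the background for the lists that follow. Among 43 neural ectoderm factors 42 lay in domains, as did all 6 Iroquois (IRX) genes, all 4 ZIC genes, 11 of 12 LIM homeobox genes, 8 of 9 PAX genes, 5 of 6 DLX genes and 11 of 14 NKX genes. Mesenchymal genes followed with 16 of 26, endoderm factors with 9 of 16, T-box genes with 8 of 16 and forkhead (FOX) genes with 24 of 48, of which the near-identical FOXD4 copies are uncertain. Signalling genes were fewer, with 8 of 19 WNT ligands and 3 of 20 FGF ligands. No member of the GATA family (5 genes), the clustered protocadherins (53), the ribosomal protein genes (76), the replication-dependent histone genes (76) or the housekeeping list (13) lay in a domain. Zinc finger genes of the ZNF series, with 3 of 505, and olfactory receptor genes, with 1 of 391, were below the share of all genes. The lists overlap, as the neural list also holds PAX, ZIC, DLX, LIM homeobox and NKX genes. They were chosen with earlier results of these data known, so the shares are a description.

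**Figure D1:**
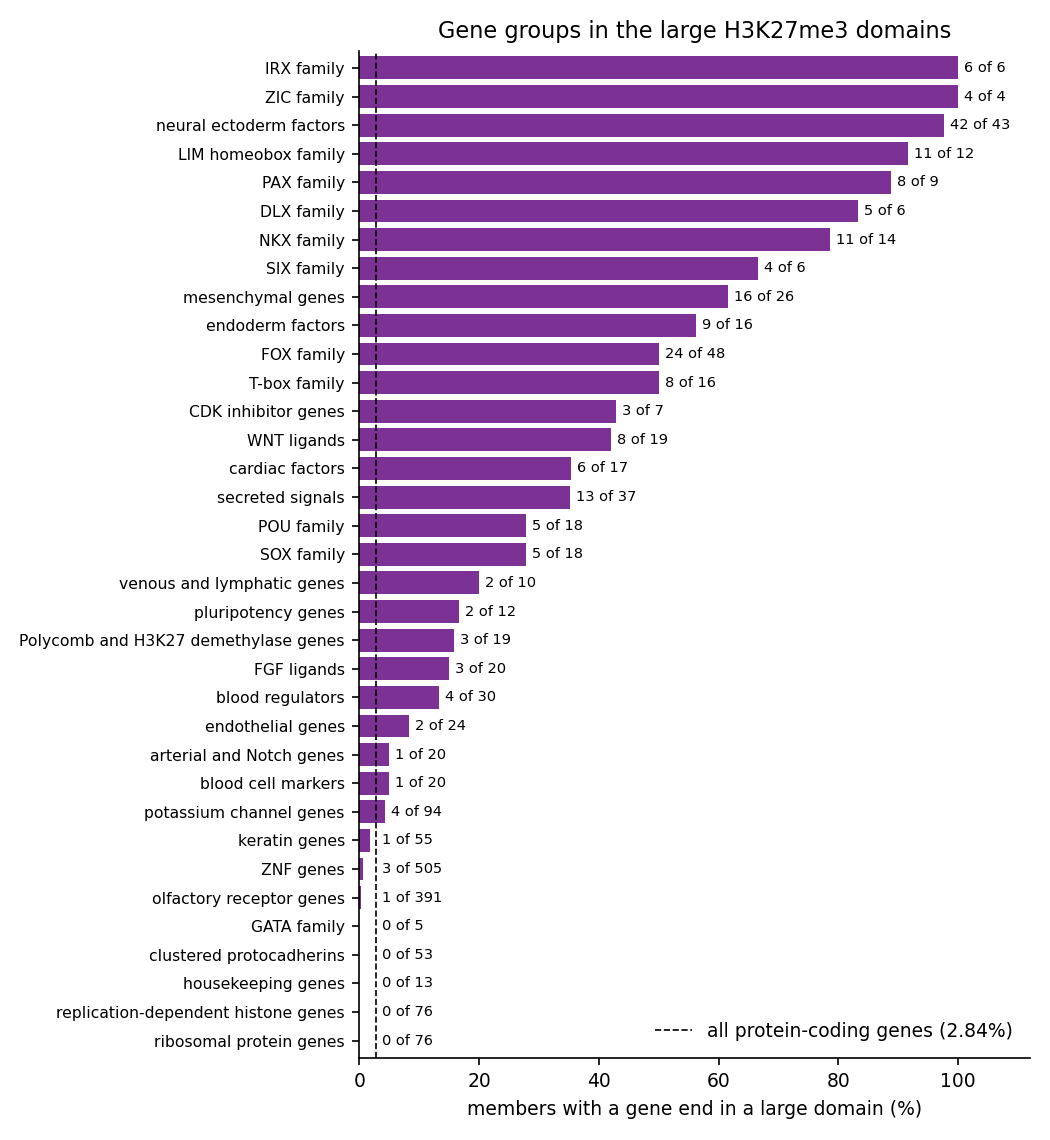
Share of each gene list with an end of the gene span in a large H3K27me3 domain (horizontal axis, %), with the number of members beside each bar and the share of all protein-coding genes (2.84%) as a dashed line. All IRX and ZIC genes and 42 of 43 neural ectoderm factors lie in domains, and 5 lists have no member there. The lists overlap in members.

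Each list of endothelial and blood genes had few members in domains, with shares above the 2.84% of all genes that rest on 1 to 4 genes a list. Of the endothelial list 2 of 24 lay in domains, SOX17 and ESAM, and of the arterial and Notch list 1 of 20, the ligand gene DLL1. The venous and lymphatic list had 2 of 10, NR2F2 and NR2F1. Blood regulators had 4 of 30, namely PAX5, GFI1, EBF1 and HLF, and blood cell markers had 1 of 20, the globin gene HBA1. The CDK inhibitor genes CDKN2A, CDKN2B and CDKN2C made 3 of 7, and genes of the Polycomb machinery and the H3K27 demethylases made 3 of 19, with BMI1, CBX2 and CBX8.

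The library labelled Vc+ covered the domains further than the Vc- labelled library. H3K27me3 islands covered 7932 kb of the domains in the Vc- labelled library, or 86.9% of their length, and 8833 kb in the Vc+ labelled library, or 96.8%. That is 11.4% more in the Vc+ labelled library, where narrower H3K27me3 regions at protein-coding genes had 31.3% more and the genome 27.3% more. These sets are unlike. Of the 4221 narrower regions, 2726 were called in both libraries and the rest in a single library, while 2 of the 473 domains lacked an island in the Vc- labelled library. The 7638 kb covered in both made up 96.3% of the cover in the Vc- labelled library and 86.5% of that in the Vc+ labelled library. Of the 473 domains, 346 (73.2%, exact 95% interval 68.9 to 77.1) were covered further in the Vc+ labelled library, against 63.9% of the 2726 narrower regions called in both libraries. Another 119 (25.2%) were covered further in the Vc- labelled library, and 8 equally. The islands themselves chose the domains, so these values are a description.

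Most differences were small beside the width of the domain. The median difference, Vc+ minus Vc-, was 1.6 kb, with quartiles at -0.2 and 3.6 kb and a range from -4.8 to 15.2 kb, and 230 domains (48.6%) lay within 2 kb of equal cover. An island of the minimum width was present in both libraries in 291 domains (61.5%, 57.0 to 65.9), in the Vc+ labelled library alone in 146 (30.9%) and in the Vc- labelled library alone in 36 (7.61%). The domains wide in a single library were seldom unmarked in the other. Those wide in the Vc+ labelled library alone were covered over a median of 71.8% in the other library, and 2 of them had no island there. Those wide in the Vc- labelled library alone were covered over a median of 81.5% in the other, and 0 had no island there. Within the 291 domains wide in both, cover was 5.70% longer in the Vc+ labelled library, with 200 further in that library and 83 in the other.

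**Figure D2:**
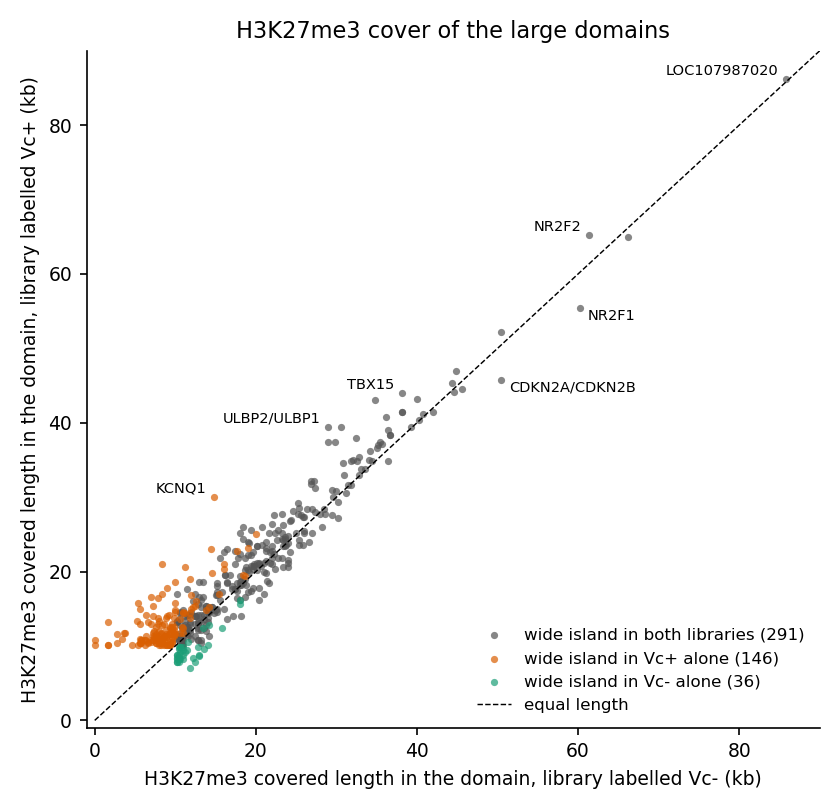
H3K27me3 covered length of each of the 473 domains in the Vc- labelled library (horizontal axis, kb) and the Vc+ labelled library (vertical axis, kb), coloured by which library held a wide island, with equal length as a dashed line. The 291 domains wide in both libraries follow the line, and the domains wide in a single library sit near the lower end, with ANKRD1 and the USP17L copies at 0 for Vc-.

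The difference narrowed with width. The 220 domains of 10 to 15 kb had 19.4% more H3K27me3 cover in the Vc+ labelled library, the 81 of 15 to 20 kb had 14.4% more, the 114 of 20 to 30 kb had 7.42% more and the 58 of 30 kb and over had 6.17% more. In the same order, a wide island was present in both libraries in 31.8%, 71.6%, 93.0% and 98.3% of the domains. The threshold itself bears on this trend, since a domain near 10 kb can pass in a single library.

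Several of the widest domains were nearly equally covered. At chr9:62798801-62885000, beside the largest gene-free stretch of the chromosome, the domain over LOC107987020 was covered over 85.8 kb in the Vc- labelled library and 86.2 kb in the Vc+ labelled library. The divergent neural genes ZIC4 and ZIC1 shared a domain at chr3:147363001-147429200 with 66.2 kb covered in the Vc- labelled library and 65.0 kb in the Vc+ labelled library. NKX2-1, at chr14:36490001-36535600, had 45.6 and 44.6 kb in that order. Their cover differed by at most 1.2 kb between the libraries.

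The 2 COUP-TF genes went in opposite directions. NR2F2 encodes COUP-TFII, which specifies venous and lymphatic endothelium, and its domain at chr15:96309401-96374600 was covered over 61.4 kb by 3 islands in the Vc- labelled library and over 65.2 kb by 1 island in the Vc+ labelled library. NR2F1, of the closely related COUP-TF1, had a domain at chr5:93566201-93626400 covered over 60.2 kb by 1 island in the Vc- labelled library and over 55.4 kb by 3 islands in the Vc+ labelled library. The NR2F1 difference of -4.8 kb was the lowest of all domains, a value it shared with HRK. The last of the NR2F2 islands in the Vc- labelled library reached into the domain by its edge alone. At both genes more than 55 kb stayed covered in each library.

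At the CDKN2A and CDKN2B locus, which encodes the cell cycle inhibitors p16 and p15 and is a known Polycomb target, the domain at chr9:21961601-22012000 was covered over 50.4 kb by 1 island in the Vc- labelled library. In the Vc+ labelled library it was covered over 45.8 kb by 2 islands. CDKN2C, of the inhibitor p18, went the other way at chr1:50963201-50986000, with 17.6 kb in 3 islands in the Vc- labelled library and 22.8 kb in 1 island in the Vc+ labelled library. The 3 CDK inhibitor genes in domains were thus not covered further in the same library.

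Further cover in the Vc+ labelled library was longest at KCNQ1, a potassium channel gene with an imprinted antisense RNA, KCNQ1OT1, in its span. The domain there, at chr11:2604401-2634400, was covered over 14.8 kb by 5 islands in the Vc- labelled library and over 30 kb by 1 island in the Vc+ labelled library. Part of LMX1B, of a LIM homeobox factor of limb and neurons, at chr9:126638001-126659000, had 8.4 kb in 4 islands against 21.0 kb in 1. The natural killer ligand genes ULBP2 and ULBP1, at chr6:149933401-149972800, had 29.0 kb in 4 islands against 39.4 kb in 1. GIMAP5, of a lymphocyte GTPase, at chr7:150736401-150752200, had 5.4 and 15.8 kb. Around GP1BB, of a platelet glycoprotein, at chr22:19714801-19728000, cover was 1.6 kb against 13.2 kb. RASGRF1, of a Ras exchange factor, at chr15:79081401-79098000, had 7.0 and 16.6 kb. The 2 domains without an island in the Vc- labelled library were ANKRD1 at chr10:90919401-90929600, with 10.2 kb in the Vc+ labelled library, and the near-identical USP17L24 and USP17L25 copies at chr4:9323201-9334000, with 10.8 kb, which is uncertain because the copies are alike.

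Further cover in the Vc- labelled library stopped at 4.8 kb. After NR2F1, HRK, of a BH3-only cell death protein, at chr12:116874601-116886400, had 11.8 kb in the Vc- labelled library and 7.0 kb in the Vc+ labelled library. RTN4RL2, of a Nogo receptor family member, at chr11:57456801-57469200, had 12.4 and 7.8 kb. NEUROD1, of a neuronal and pancreatic bHLH factor, at chr2:181671801-181692200, had 20.4 kb in 1 island and 16.2 kb in 2. KRT10, of an epidermal keratin, at chr17:40816401-40834600, had 18.2 and 14 kb. SUSD4 and ASTN2 each had 13.0 kb in the Vc- labelled library, against 8.6 and 8.8 kb in the Vc+ labelled library.

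Domains were broken into more islands in the Vc- labelled library. The 473 domains held 631 islands in the Vc- labelled library and 530 in the Vc+ labelled library, and 126 were split into more than 1 island in the former against 54 in the latter. An island counts even where its edge alone reaches into the domain, as at NR2F2 and at ULBP2 and ULBP1 in the Vc- labelled library. More islands in the Vc- labelled library were counted in 117 domains (24.7%, 20.9 to 28.9), and the same was true of 4.77% of the narrower regions called in both libraries. More islands in the Vc+ labelled library were counted in 47 domains (9.94%, 7.39 to 13.0), against 1.98% of the narrower regions. The remaining 309 had equal numbers, and 10 were split in both. Narrower regions leave less room for a gap, and merging 2 libraries joins what is split in either, so these backgrounds are a guide only. The choice of domains bears on the counts too, since a domain wide in a single library is 1 unbroken island there by the rule. Among the 291 domains wide in both, 61 (21.0%, 16.4 to 26.1) had more islands in the Vc- labelled library. In the Vc+ labelled library 30 (10.3%, 7.06 to 14.4) had more.

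The breaks were short. Where only the Vc- labelled library was split, its 149 gaps had a median of 1.0 kb and ran from 0.8 to 7.0 kb. Where only the Vc+ labelled library was split, its 46 gaps had a median of 1.0 kb as well and ran from 0.8 to 3.0 kb. The smallest possible gap in the H3K27me3 lists is 800 bp, as islands nearer than that do not occur, so a typical gap spans few windows of 200 bp. IRX6, of an Iroquois factor, at chr16:55315801-55338800, had 14.4 kb in 4 islands in the Vc- labelled library and 23 kb in 1 island in the Vc+ labelled library. HPCAL4, of a neuronal calcium sensor, had 32.8 kb in 4 islands and 35.4 kb in 1. On the other side, DNAH11, of a ciliary dynein, had 15.8 kb in 1 island in the Vc- labelled library and 12.4 kb in 3 islands in the Vc+ labelled library. SOX2 had nearly equal cover, 40.2 and 40.4 kb, in 1 and 2 islands.

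**Figure D3:**
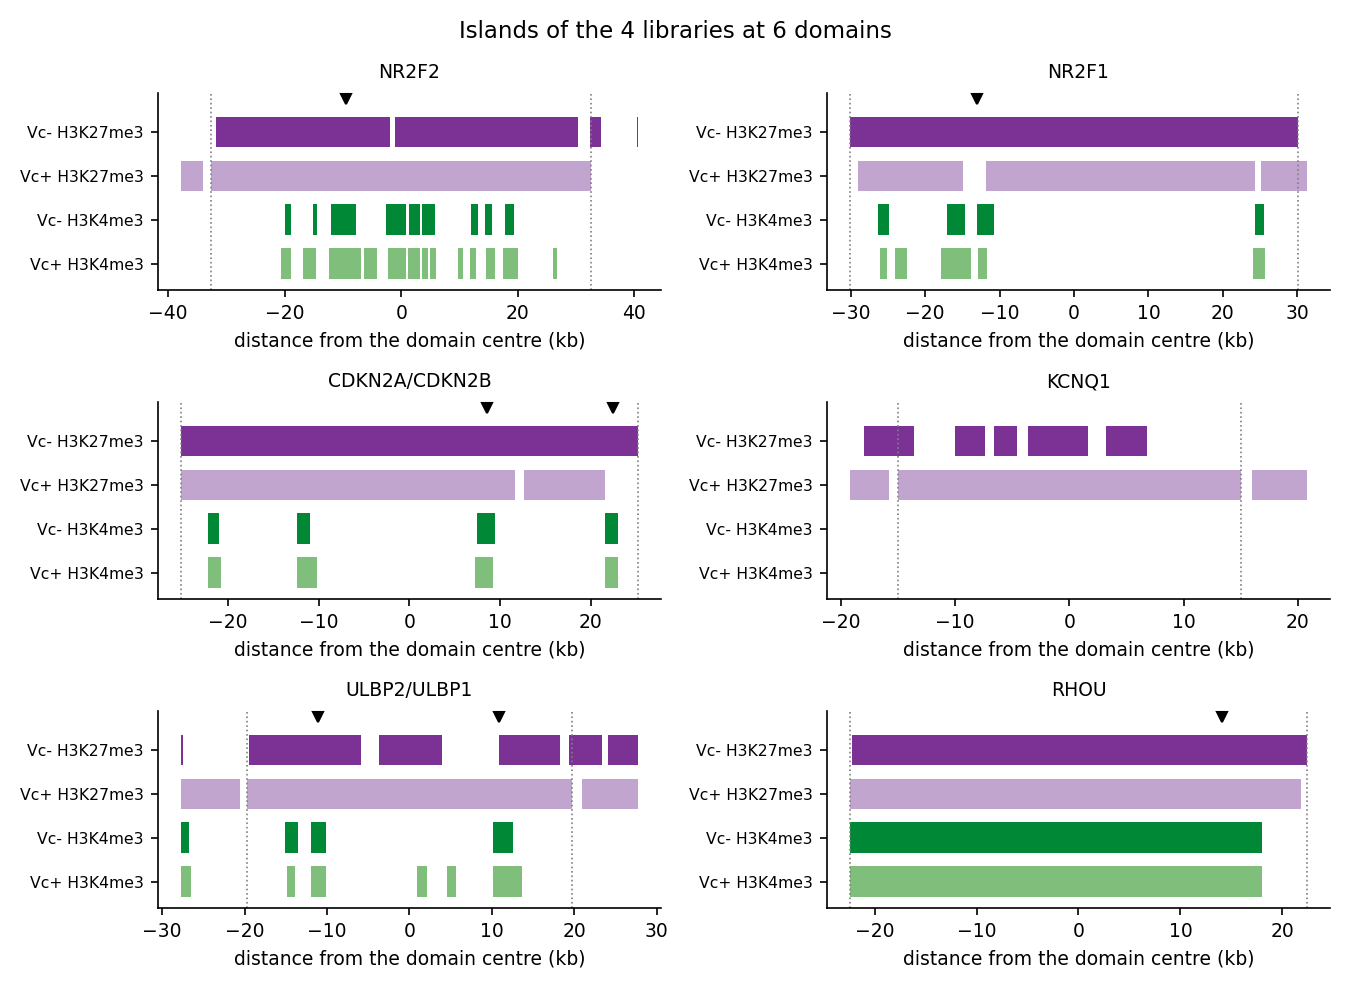
Islands of the 4 libraries (rows) around 6 domains, by distance from the domain centre (horizontal axis, kb), with domain borders as dotted lines and tabulated gene starts as triangles. NR2F2, KCNQ1 and ULBP2/ULBP1 are broken in the Vc- H3K27me3 row and NR2F1 and CDKN2A/CDKN2B in the Vc+ row, while RHOU carries H3K4me3 over 40.4 kb in both libraries.

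In the few members from the endothelial, arterial and blood lists, cover differed between the libraries by at most 5 kb. SOX17, of an endothelial and endodermal factor, had 24.0 kb in the Vc- labelled library and 23.8 kb in the Vc+ labelled library. DLL1, of a Notch ligand, at chr6:170287601-170300400, had 10.6 and 12.8 kb in the same order. PAX5, of the B cell identity factor, had 24.0 and 24.8 kb over its 5′ end, and GFI1, of a repressor in the emergence of blood from endothelium, had 13.0 and 16.6 kb. For EBF1, of an early B cell factor, cover was 14.2 and 12.8 kb, and for HLF, of a factor of blood stem cells, 10.2 and 11 kb. ESAM, of an endothelial adhesion molecule, shared a domain with NRGN at chr11:124734401-124759400, with 20 kb in 4 islands in the Vc- labelled library and 25 kb in 1 island in the Vc+ labelled library. HBA1 lay in a domain with 28.2 and 26.0 kb, in 1 and 2 islands.

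Several gene families spread over many domains. The 6 cardiac factors in domains (TBX5, TBX18, IRX4, TBX1, HAND2 and TBX2, of 17 listed) all had longer cover in the Vc+ labelled library, as did 73.2% of all domains. Their median difference was 1.6 kb, which is also the median over all domains, and 6 genes are few. TBX5, of the factor for forelimb and heart, had 26.8 kb in the Vc- labelled library and 32.2 kb in the Vc+ labelled library. Of the 42 neural ectoderm genes 30 were covered further in the Vc+ labelled library and 11 in the Vc- labelled library, with a median difference of 0.7 kb. For the 24 FOX genes the numbers were 18 and 6, with a median of 1.1 kb. Of the 8 WNT ligand genes 6 were covered further in the Vc+ labelled library, of which WNT7A had 10.0 kb in the Vc- labelled library and 18.6 kb in the Vc+ labelled library. The neural, FOX and WNT counts lie near the 73.2% of all domains covered further in the Vc+ labelled library. WNT1 and WNT10B, in a shared domain, had 23.4 kb in the Vc- labelled library and 20.6 kb in the Vc+ labelled library.

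H3K4me3, which the choice of domains did not use, was present in most domains of both libraries. It overlapped 432 domains (91.3%, 88.4 to 93.7) in the Vc- labelled library and 439 (92.8%, 90.1 to 95) in the Vc+ labelled library. The same share over the 4221 narrower H3K27me3 regions at protein-coding genes was 67.8% in the Vc- labelled library and 68.6% in the Vc+ labelled library, and wider regions have more room for an overlap. Both libraries had H3K4me3 in 429 domains, the Vc+ labelled library alone in 10, the Vc- labelled library alone in 3 and neither in 31. As a share of length, H3K4me3 covered 17.3% and 21.4% of the domains, against 23% and 25.3% of the narrower regions. By length, then, the domains held less H3K4me3 than the narrower regions.

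Inside the domains H3K4me3 was longer in the Vc+ labelled library. It covered 1579 kb in the Vc- labelled library and 1955 kb in the Vc+ labelled library, which is 23.8% more, against 9.77% more in the narrower regions and 11.5% more over the genome. The median per domain was 2.6 and 3.4 kb, and the number of islands 956 and 1004. Of 442 domains with H3K4me3 in either library, 318 (71.9%, 67.5 to 76.1) had more of it in the Vc+ labelled library, 81 (18.3%) in the Vc- labelled library and 43 equal lengths. Among the narrower regions 49.8% had more of it in the Vc+ labelled library. Cover is counted inside a region alone, so narrower regions leave less room for a difference in length, and the comparisons with them are a guide only. The longer H3K4me3 list was also shortened, lowest scores first, to the total length of the other, a setting chosen after seeing the data. The domains then held 13.0% more in the Vc+ labelled library, down from 23.8%. The share of domains with H3K4me3 turned, to 91.3% (Vc-) and 90.9% (Vc+). That setting drops whole islands and narrows none, so it could not level a difference in width among the islands kept. Depth and enrichment of the libraries are not given in the sources used here, and their part in these differences was not tested.

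The longer H3K4me3 cover was found across the domains and not at gene starts alone. Within 2 kb of a gene start it went from 39.2% of the length in the Vc- labelled library to 47.7% in the Vc+ labelled library, or 21.6% more. Further from gene starts it went from 13.7% to 17.2%, or 24.8% more. On the stretches with H3K27me3 in both libraries it covered 19.1% and 23.9%. On the stretches with H3K27me3 in the Vc+ labelled library alone it covered 8.02% and 9.01%, and on those with H3K27me3 in the Vc- labelled library alone 7.07% and 7.41%. By share of length, H3K4me3 was lower in both libraries on the stretches where the H3K27me3 calls differed.

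**Figure D4:**
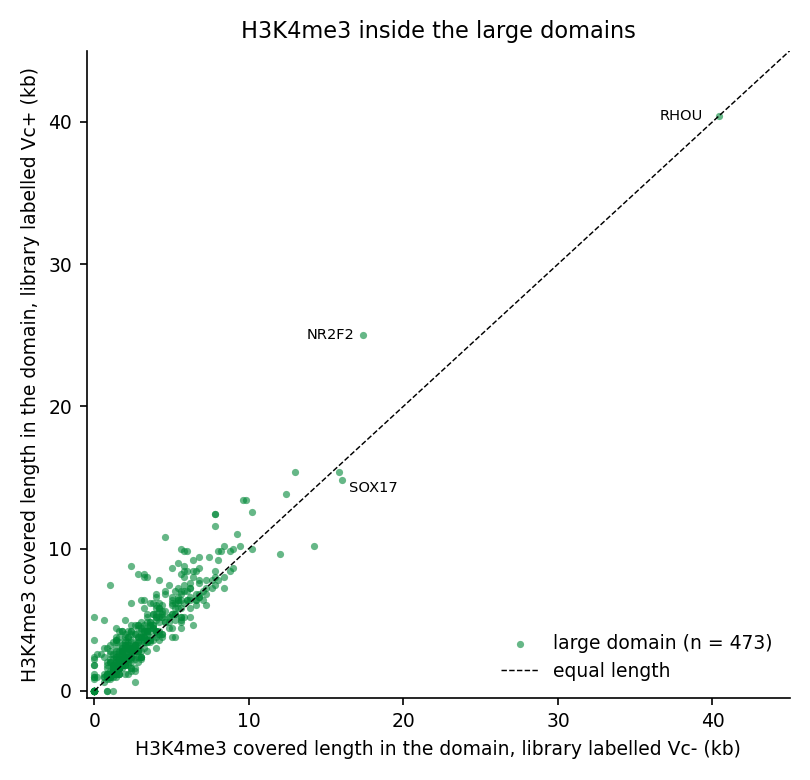
H3K4me3 covered length in each of the 473 domains in the Vc- labelled library (horizontal axis, kb) and the Vc+ labelled library (vertical axis, kb), with equal length as a dashed line. Of 442 domains with H3K4me3, 318 lie above the line, RHOU lies on it at 40.4 kb and NR2F2 above it at 17.4 and 25 kb.

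The domain with the longest H3K4me3 cover was RHOU, at chr1:228608201-228653000, with 40.4 kb of H3K4me3 in both libraries under 44.6 and 44.2 kb of H3K27me3. It spans 17 ribosomal RNA genes, and no other domain holds any. Such genes are repeated, so these values are uncertain. NR2F2 came next, with 17.4 kb in the Vc- labelled library and 25 kb in the Vc+ labelled library. FOXC1, of a factor of mesenchyme and vessel development, at chr6:1598001-1629400, had 15.8 and 15.4 kb under 31.2 and 30.6 kb of H3K27me3. For SOX17 the values were 16.0 and 14.8 kb. TFAP2A, of a neural crest and ectoderm factor, had 12.4 and 13.8 kb.

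Some domains had H3K4me3 in the Vc+ labelled library and none in the other. Ranked by island score, these were led by DPP6 with 1.0 kb, ONECUT3 with 5.2 kb, CAMKMT with 0.8 kb, DHRS3 with 1.8 kb, RSPO1 with 1.2 kb and NKX1-1 with 3.6 kb. ONECUT3, of a neural and endodermal factor, carried 32.6 kb of H3K27me3 in the Vc- labelled library and 34.8 kb in the Vc+ labelled library. Domains without H3K4me3 in either library were led in width by KCNQ1 (30 kb), TFAP2D (29.4 kb), VPREB1 (27.6 kb), a second LMX1B domain (24.6 kb), NFIX (24.2 kb) and EPM2A (22.8 kb). The KCNQ1 domain held no end of the gene, as did 50 domains that lay within gene spans.

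At the tabulated starts of genes, 329 of which lay in 298 domains, H3K4me3 was found in 233 (70.8%, 65.6 to 75.7) in the Vc- labelled library and in 260 (79.0%, 74.2 to 83.3) in the Vc+ labelled library. Over all 15101 starts the shares were 69.1% and 69.8%. In narrower H3K27me3 regions, with 1618 starts, they were 81.3% and 84.9%. The mark was present in both libraries at 225 starts in domains and in neither at 61. Where both had it, the island over the start had a median width of 1.8 kb in the Vc- labelled library and 2.2 kb in the Vc+ labelled library. It was wider in the Vc+ labelled library at 129 starts (57.3%), near the 57.4% of all starts with the mark in both libraries.

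**Figure D5:**
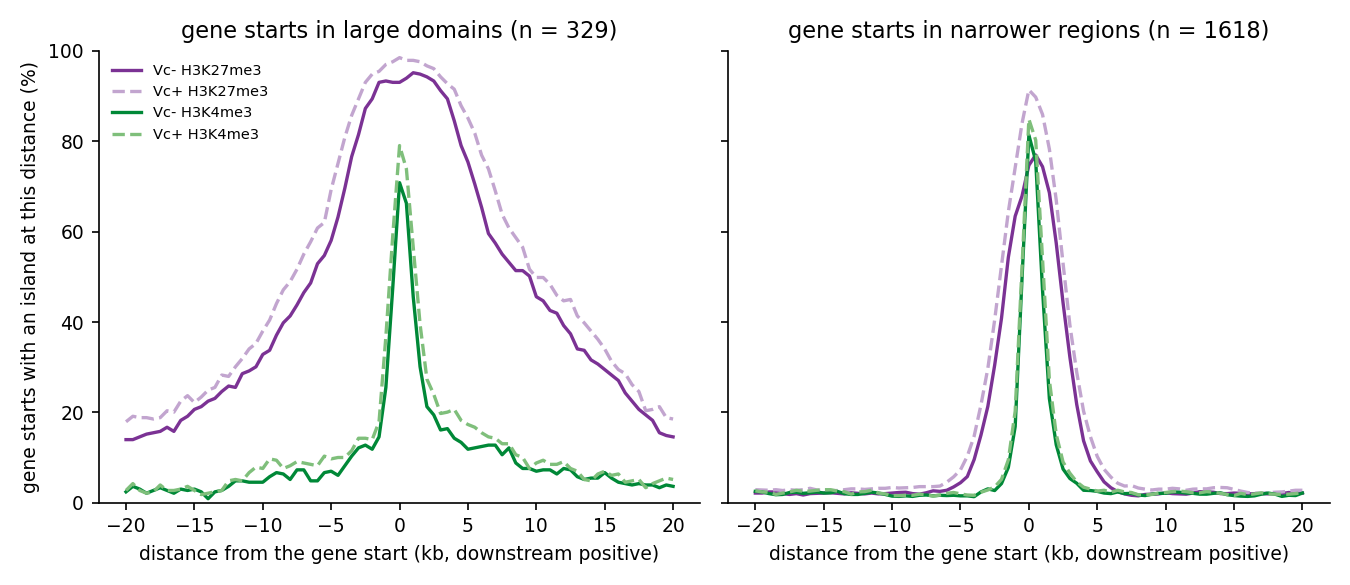
Share of gene starts (vertical axis, %) with an island of each library at each distance from the start (horizontal axis, kb), for starts in large domains (left, n = 329) and in narrower H3K27me3 regions (right, n = 1618). H3K27me3 of the domains still covers 45.6% (Vc-) and 49.8% (Vc+) of positions 10 kb downstream, where narrower regions have 2.22% and 3.03%, and H3K4me3 peaks at the start in every set.

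H3K4me3 over the start in the Vc+ labelled library alone was found at 35 of the 329 starts (10.6%, 7.52 to 14.5), against 2.07% of all starts. In the Vc- labelled library alone it was found at 8 (2.43%, 1.06 to 4.73), against 1.34% of all starts. Starts in narrower H3K27me3 regions lay between for the Vc+ labelled library, with 5.69%, and near the domains for the other, with 2.16%. The former group holds the homeobox genes NKX2-1, NKX2-8, NKX1-1, GSX1, LHX2, IRX1 and IRX2, the Hedgehog and WNT ligand genes DHH, WNT1 and WNT10A, and the factor genes NEUROD1, OLIG3, ZIC1, EBF1, FOXE1, FOXF2 and TCF21. The latter group was SLC38A4, TBX5, FIGLA, OTP, NR2F1, NR2E1, DMRT3 and FOXB2. Counting H3K4me3 within 1 kb of the start lowered these numbers to 19 (5.78%) and 3 (0.912%), against 3.46% and 1.05% in narrower regions and 1.10% and 0.735% of all starts. Of 32 neural ectoderm starts, among them NEUROD1, OLIG3, ZIC1 and LHX2, 30 had it within 1 kb in the Vc+ labelled library and 28 in both. Some of these named genes thus had an island of the Vc- labelled library within 1 kb as well. With H3K4me3 lists of equal length they were 29 (8.81%) and 13 (3.95%), against 4.45% and 3.65% in narrower regions and 1.66% and 1.99% of all starts.

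Lengths at single genes show the scale of these differences. At NKX2-1 the start had no H3K4me3 island in the Vc- labelled library and one of 2.6 kb in the Vc+ labelled library, and the whole domain held 1.4 and 4.4 kb. At ZIC1 the island over the start was 0.8 kb wide in the Vc+ labelled library, in a domain with 4.4 kb of H3K4me3 in the Vc- labelled library and 5.6 kb in the Vc+ labelled library. IRX1 had an island of 2.6 kb over its start in the Vc+ labelled library, and its domain held 0.6 and 5.0 kb. NEUROD1 had 1.0 kb over its start in the Vc+ labelled library, the library with less H3K27me3 there. At NR2F1 the island of 2.4 kb over the start in the Vc- labelled library passed the start by its edge. An H3K4me3 island of the Vc+ labelled library lay inside it, less than 1 kb from the start, so the difference in the call is one of island edges. The whole NR2F1 domain held 7.4 kb of H3K4me3 in the Vc- labelled library and 9.4 kb in the Vc+ labelled library.

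Promoter sequence differed among the starts by whether an H3K4me3 island lay over the start itself. With H3K4me3 counted within 1 kb, 271 (Vc-) and 287 (Vc+) of the 329 starts in domains had it. Some starts without an island over them thus had one nearby. The ratio of observed to expected CpG, computed from the RefSeq window of each gene, had a median of 0.80 at starts in domains, 0.79 in narrower regions and 0.77 over all starts. A ratio of at least 0.6 was found at 81.2% (76.5 to 85.2) of the starts in domains, against 80.3% (78.3 to 82.2) in narrower regions and 66.3% of all starts. By this measure the large domains and the narrower regions were nearly alike. Within the domains it was found at 91.6% of the 225 starts with H3K4me3 in both libraries (median 0.84), at 77.1% of the 35 with it in the Vc+ labelled library alone (median 0.75), at 8 of the 8 with it in the Vc- labelled library alone (median 0.72) and at 42.6% (30 to 55.9) of the 61 with it in neither (median 0.56). Among the promoters printed above, which were picked after their values were seen, the window of CDKN2A had a ratio of 1.13 and that of FOXC1 1.02. ANKRD1 had 0.24 and TFAP2D 0.26. The others did not follow the H3K4me3 classes in order, with 0.67 for SOX2, 0.93 for ZIC1, 0.61 for NKX2-1 and 0.61 for NR2F1.

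Among 1461 microRNA hairpins on these chromosomes, 16 lay in domains. The pair of clusters below shared a seed, the bases 2 to 8 in capitals, between neighbouring members. On chromosome 17 miR-132-3p and miR-212-3p lay in the domain of HIC1 and SMG6, covered by H3K27me3 over 13.8 kb in the Vc- labelled library and 15.4 kb in the Vc+ labelled library.
hsa-miR-132-3p, chr17:2049929-2049950, minus strand: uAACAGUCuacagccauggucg
hsa-miR-212-3p, chr17:2050290-2050310, minus strand: uAACAGUCuccagucacggcc
On chromosome 5 the miR-449 cluster, known from cells with motile cilia, lay in the domain of CDC20B with 13.2 and 15.2 kb covered, and the seed of miR-449c-5p is moved by a base against the other 2.
hsa-miR-449a, chr5:55170586-55170607, minus strand: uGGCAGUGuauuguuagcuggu
hsa-miR-449b-5p, chr5:55170706-55170727, minus strand: aGGCAGUGuauuguuagcuggc
hsa-miR-449c-5p, chr5:55172313-55172337, minus strand: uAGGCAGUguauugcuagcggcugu
H3K4me3 covered 7.8 and 7.4 kb of the HIC1 and SMG6 domain and 1.8 and 2.8 kb of the CDC20B domain.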

How the data were processed

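ChIP-seq of H3K4me3 and H3K27me3 had been run on the cells, and the authors deposited 1 island list per mark and condition. Bowtie2, SICER, deepTools and the genome builds hg38 and GRCh38 appear, with no role or order, per the submitters' processing notes. Versions and settings are not given in the sources used here. The deposited score of each island is the authors' and looks like -log10 of a false discovery rate from its values. It served for ranking and filtering inside a list and for nothing else. Neither depth nor read counts are given, so exact Clopper-Pearson 95% intervals cover counting error only.

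Deposited starts and ends count from 0 with the end included, and coordinates are given from 1. Islands of at least 10000 bp (end minus start) were merged where they overlapped by 1 bp, and cover is the base pairs of all islands of a library inside a domain. Genes, starts (15101 of 19126 protein-coding genes), promoter windows and microRNAs came from RefSeq tables on GRCh38.p14, and a tabulated start may lie inside the gene span. Named were the 12 widest domains, the 8 with the largest difference in cover and the 6 with the largest difference in islands in each direction, the 6 with the longest H3K4me3, the 6 with it in a single library by score, the 6 widest without it, and members of the gene lists. Some items that this rule names are not reported here. Printed promoters and the microRNAs were picked after their values were seen. Members and lists were chosen with earlier results of these data known. Alternatives covered width, score, merging, gene and overlap rules, and lists of equal length. Interval code was checked against bedtools 2.31.1 (0 differences) and tested on simulated data, where 200 of 200 planted domains were recovered. Python 3.11.15, numpy 2.4.6, pandas 2.3.3, scipy 1.17.1 and matplotlib 3.10.9 were used.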

Additional observations from a re-analysis of the deposited data

Results flagged for a closer look

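Chromosome X was outside the choice of domains and held 8 H3K27me3 islands of the minimum width in the Vc- labelled library and 12 in the Vc+ labelled library. Another 306 merged wide regions held no protein-coding gene. Of these, 186 were found less than 5 Mb from the largest stretch without genes on their chromosome and 62 over a long non-coding RNA gene, and their median width was 14.8 kb.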

How the results depend on the processing

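No paired analysis was possible because each mark and condition had 1 library. Of 134 values compared over 13 alternatives, 108 stayed close to the main value and 26 moved. A minimum of 8 kb gave 778 domains, with 19.4% split more in the Vc- labelled library, and a minimum of 20 kb gave 169, with 7.14% more H3K27me3 in the Vc+ labelled library, 35.5% split more in the Vc- labelled library and 14.2% in the other, and H3K4me3 in 95.3% (Vc-) and 95.9% (Vc+). Domains wide in both libraries numbered 291, with 5.70% more cover, 68.7% further in the Vc+ labelled library and H3K4me3 in 94.8% and 96.6%. Those holding a gene start numbered 298, with H3K4me3 in 95.3% and 97.0%. Islands with a score of at least 10 left 18.8% split more in the Vc- labelled library. An H3K4me3 overlap of at least 1 kb was met by 86.7% in the Vc- labelled library, and 82.4% and 87.2% of starts had H3K4me3 within 1 kb. H3K4me3 lists of equal length, added after seeing the data, gave 13.0% more in the Vc+ labelled library, while the share of domains with H3K4me3 turned from higher in that library to lower, with 91.3% (Vc-) and 90.9% (Vc+). The cause of these shifts was not tested. H3K27me3 lists of equal length gave 11% more cover and 72.8% of domains further in the Vc+ labelled library. That setting dropped the islands of lowest score and left 471 domains. It hardly touched the wide islands that make domains, so it could change these values little. Without read depth, a gap of 1.0 kb cannot be told apart from too few reads.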

Other observations

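Cover at some further list members was as follows. UTF1, of a chromatin factor of pluripotent cells, lay in a domain with H3K27me3 over 11.6 kb in the Vc- labelled library and 11.4 kb in the Vc+ labelled library, and H3K4me3 over 2.0 and 3.6 kb. CBX2 and CBX8, of Polycomb repressive complex 1 subunits, shared a domain with 10.4 kb in the Vc- labelled library and 7.8 kb in the Vc+ labelled library. BMI1, of another subunit, lay in a domain with 18.4 and 19.6 kb. Endoderm genes covered to nearly equal lengths included FOXA1, with 32.8 and 33.0 kb, and PDX1, with 21.2 and 21.4 kb, while GSC had 12.4 and 17.0 kb. VAX1, of a forebrain homeobox factor, was covered over 34.8 kb in 3 islands in the Vc- labelled library and 43.0 kb in 1 island in the Vc+ labelled library.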
